A study of Bos taurus with 16 samples.

Results

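Splicing factors and heterogeneous nuclear ribonucleoproteins (hnRNPs) were followed here through repeated linear amplification of cattle (Bos taurus) kidney RNA. Members were all array features whose listed gene symbol begins with SRSF and a digit, HNRNP, SF3A or SF3B, PRPF, SNRP, U2AF, or RBM and a digit. The rule took 73 of the 8448 features of the array, for 53 genes, and all 73 were among the 5537 features tested. A feature is 1 spotted cDNA clone printed as 2 duplicate spots. In the RBM family, 2 further features listed with RBM15B and a further gene were left out, because 1 gene could not be named for them. The series title presents the work as a check of linear amplification for single bovine embryos.

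The groups are 4 states of kidney RNA, with 2 RNAs each, called replicates 1 and K. Round 0 is unamplified total kidney RNA, and rounds 1, 2 and 3 are kidney RNA after that number of linear amplifications, in which RNA is copied through in vitro transcription. Every RNA was hybridised on 2 arrays, with the Cy3 and Cy5 dyes exchanged, against 1 reference standard RNA that had itself been amplified for 2 rounds. The labels give no age, sex or breed, and they do not say what the reference was made of or whether replicates 1 and K came from separate animals. The p-values therefore measure only the spread between these RNAs, which may be technical. The samples are bulk tissue, so a ratio cannot tell fewer cells of a type from less RNA per cell.

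Splicing removes introns from pre-mRNA on the spliceosome, a machine of small nuclear ribonucleoproteins (snRNPs). Sm proteins coat the snRNAs, the U2AF dimer reads the 3′ end of the intron, and the SF3A and SF3B complexes hold the U2 snRNP at the branch point. PRPF proteins act in and around the U4/U6.U5 tri-snRNP that completes the machine. SR proteins (SRSF) bind exon enhancers and mostly promote use of an exon, whereas hnRNPs coat nascent RNA and often oppose it. The numbered RBM proteins are a mixed set of RNA-binding proteins, many of them regulators of splicing. Most of these roles are known from human cells. Most of these genes are expressed broadly, in kidney as in other tissues.

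Values below are log2 ratios, kidney divided by reference, set so that the median listed feature of each array is 0. Which dye stood on top of the deposited ratios is not stated. Kidney over reference is the likely direction, because the kidney marker list (18 features of 11 genes, led by GPX3, ENPEP, S100G and AQP1) then had median ratios of 2.28 and 2.76 in the 2 dye orientations at round 0. With the other direction, every sign below would turn. Between 14182 and 16057 of 16896 spots per array had a ratio, and the 2 duplicate spots of an array correlated at r = 0.496 to 0.822. All 4 round 0 arrays were deposited with 3 decimals in every cell, against 83.2% to 88.2% of cells in the 12 amplified arrays, so a difference in the authors' processing cannot be told apart from the lack of amplification. Median ratios of markers of other cells also differed between rounds. Stroma markers (14 features) had median ratios of -1.18, -0.18, -0.56 and -0.69 at rounds 0, 1, 2 and 3, immune markers (8 features) of -0.85, -0.32, 0.23 and -0.23, and placenta and trophoblast markers (11 features) of -0.72, 0.32, 0.11 and 0.30. No tested feature with 1 listed gene carried a symbol of the blood list, and the part of these markers in the results was not tested.

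Against the reference, kidney splicing features lay on both sides of the array median. Their ratios spanned -2.19 to 1.93 at round 0, within a span of -6.38 to 6.62 for all features. At round 0, 21 of the 73 were above the reference and 10 below it at adjusted p under 0.05 (limma, Benjamini-Hochberg over all features), where 19.6% of all features were called above and 19% below (38.7% in either direction). After 1 round, 10 were above and 21 below (all features, 16.9% and 20.9%, together 37.8%). After 2 rounds, 12 were above and 19 below (16.5% and 18.6%, together 35.2%), and after 3 rounds 9 were above and 17 below (16.7% and 18.4%, together 35.1%). The median ratio of the 73 was 0.11 at round 0 and -0.16, -0.10 and -0.10 at rounds 1, 2 and 3, against -0.02, 0.04, 0.02 and 0.01 for all features. Without centring the splits were 28 above and 1 below, 3 and 20, 15 and 3, and 8 and 6 at rounds 0 to 3, so that the side of the reference rests on the centring. Of all features, 35.7%, 26.5%, 31.2% and 22.1% were then called in either direction. Leaving out 1 RNA gave 12 and 14 calls at round 0 without its replicate 1 or K, 20 at round 1 without K, 15 and 13 at round 2 without replicate 1 or K, and 14 at round 3 without K. Counts with an RNA left out have no share of all features beside them here. A loss of calls over the whole array therefore cannot be told apart in them from a change of the members. The 16 arrays limit the precision of every ratio.

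**Figure D1:**
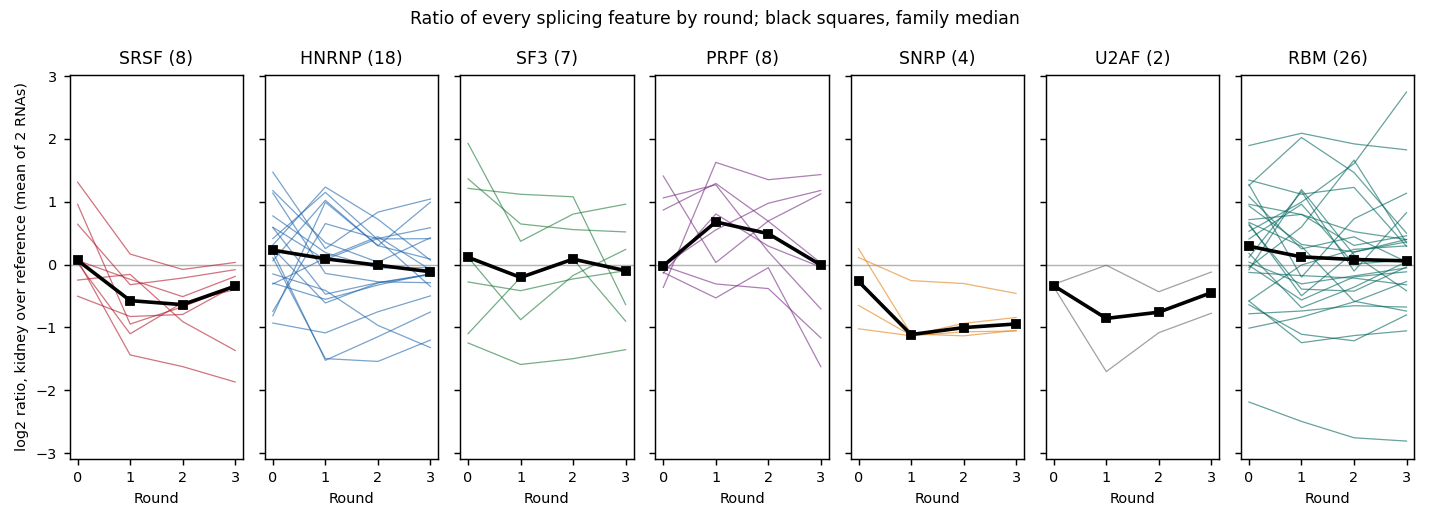
Log2 ratio of kidney over reference (y axis, mean of 2 RNAs) at rounds 0 to 3 (x axis) for every splicing feature, 1 line each, by family, with the number of features in brackets and the family median as black squares. The SRSF median is 0.07 at round 0 and -0.57 at round 1, the SNRP median is -0.27 and -1.11, and the RBM lines span the widest range.

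The families differed in where they lay. SR proteins (8 features of 7 genes) had a median of 0.07 at round 0 and of -0.57, -0.64 and -0.34 at rounds 1, 2 and 3. None of the 8 was called below the reference at round 0 and 3 were above it; at rounds 1, 2 and 3 none was above and 4, 6 and 2 were below. The hnRNPs (18 features of 11 genes) had medians of 0.23, 0.09, -0.01 and -0.11 in the order of the rounds. SNRP proteins (4 features) had -0.27, -1.11, -1.00 and -0.94, with 2 below the reference at round 0 and 3 below it at each amplified round. SF3 proteins (7 features) had medians of 0.12, -0.20, 0.09 and -0.10. PRPF proteins (8 features) had medians of -0.02, 0.68, 0.49 and -0.01, the highest of the 7 families at rounds 1 and 2. The RBM family (26 features of 20 genes) had medians of 0.29, 0.12, 0.08 and 0.06. Only 2 features represent U2AF, 1 for each subunit, with medians of -0.34, -0.86, -0.76 and -0.45. Of these 2, 1 was called below the reference at rounds 1 and 2.

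Of the 73, 8 features were called against the reference at every round, 1 above it and 7 below it. Of the members that is 1.37% above and 9.59% below, whereas 843 of all 5537 features (15.2%) were called at every round, 6.90% above and 8.33% below. RBM47, an epithelial RNA-binding protein that serves as a cofactor of APOBEC1, stood at 1.88 and 1.91 at round 0, 2.20 and 1.98 at round 1, 1.84 and 2.00 at round 2 and 1.67 and 1.99 at round 3. All 8 values of RBM47 were high, between 1.67 and 2.20. RBM3, a cold-inducible RNA-binding protein, was lowest, at -2.12 and -2.25 at round 0, -2.65 and -2.34 at round 1, -2.71 and -2.80 at round 2 and -2.77 and -2.84 at round 3. All 8 values of RBM3 were below -2. SF3B5, a small subunit of SF3B, stood at -1.29 and -1.20 at round 0, -1.31 and -1.87 at round 1, -1.45 and -1.54 at round 2 and -1.06 and -1.65 at round 3. SNRPD2, an Sm core protein, stood at -1.01 and -1.04 at round 0, -0.82 and -1.45 at round 1, -0.85 and -1.29 at round 2 and -0.89 and -1.22 at round 3. The clone BF045576 of RBM17, an alternative splicing factor that binds SF3B1, stood at -0.60 and -0.56 at round 0, -1.41 and -1.07 at round 1, -1.22 and -1.04 at round 2 and -1.03 and -1.08 at round 3. Neither these 3 nor RBM47 and RBM3 passed the test between any 2 rounds. The other 3 below the reference were RBM45, SNRPA (a protein of the U1 snRNP) and RBM15, an adaptor of RNA methylation, with means over the rounds of -0.94, -0.89 and -0.71.

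Comparing each amplified state with round 0 asks how these ratios differed after amplification. In the counts below, a feature fell or rose where it was called lower or higher at adjusted p under 0.05 (limma). More splicing features fell than rose. After 1 round 16 fell and 2 rose, where 7.87% of all features fell and 5.4% rose (13.3% in either direction); the 16 are 21.9% of the members. After 2 rounds 11 fell and 1 rose (all features, 6.79% and 4.39%, together 11.2%), and after 3 rounds 13 fell and 1 rose (7.04% and 4.57%, together 11.6%). The median change of the 73 was -0.31, -0.36 and -0.33 at rounds 1, 2 and 3, against -0.03, 0.01 and 0.00 for all features. These 3 comparisons share the same 2 round 0 RNAs and are given side by side for that reason. In all, 23 features of 21 genes were called in 1 or more of them.

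The counts depend on single RNAs and on the centring. With all RNAs, 32 of the 73 members and 1709 of all 5537 features had an unadjusted limma p under 0.05 at round 2 against round 0. Counts with an RNA left out have no share of all features beside them. A change over the whole array therefore cannot be told apart in them from a change of the members. Without 1 round 0 RNA, replicate 1 or K, 3 and 4 calls were left at round 1, 1 and 1 at round 2, and 1 and 1 at round 3. Round 1 had 10 calls without its own replicate 1 and 3 without K, round 2 had 0 without either of its own (32 members at unadjusted p under 0.05 with both), and round 3 had 3 and 1 without its own and 9 without either RNA of round 2. Of the 44 single calls, 4 were kept whichever of the 8 RNAs was left out: PRPF31 clone AW461574 at rounds 1 and 3, and SRSF7 clone AW464625 and HNRNPA2B1 clone AW464917 at round 1. Another 33 were lost in some of the 8 cases. The remaining 7 were lost in all 8: SRSF6 at rounds 1 and 2, HNRNPH2 at rounds 2 and 3, SRSF7 clone BF045069 and HNRNPDL clone AW464170 at round 1, and SF3B1 clone BF040483 at round 3. Without centring, 39 members fell and 0 rose at round 1, beside a median change of -1.04 over all features, of which 33.7% were then called. At rounds 2 and 3, 0 members were called, beside 1.21% and 2.35% of all features. Without the Cy3 array of round 1 replicate 1, whose deposited scale was odd, the counts were 10, 7 and 5 at rounds 1, 2 and 3. They were 0, 3 and 5 with only the RNAs of the compared rounds fitted, and 2, 3 and 6 on arrays with kidney in Cy5 alone. The difference between the members' median and that of all features was -0.28, -0.37 and -0.33 at rounds 1, 2 and 3. It lay from -0.34 to -0.20, -0.48 to -0.22 and -0.44 to -0.22 over the 18 alternatives. Several of these alternatives could not move a given comparison, such as leaving out an RNA of a round not compared. Centring also largely cancels in a difference of medians. The narrow range therefore does not show that the difference withstands these choices.

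**Figure D2:**
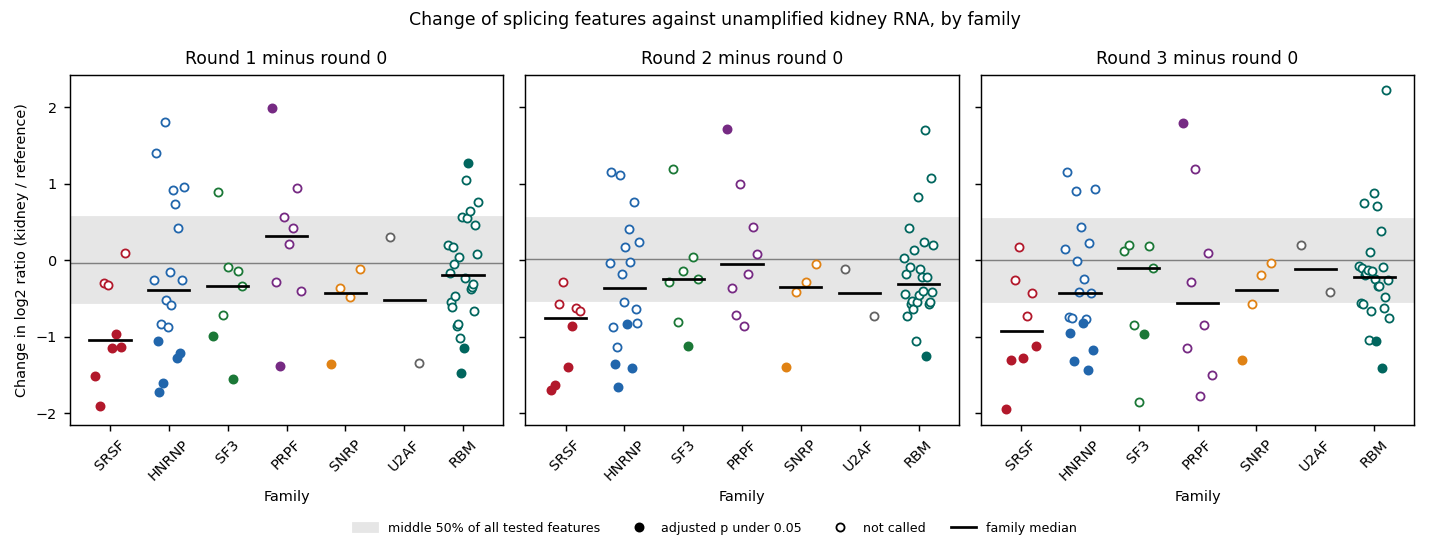
Change in log2 ratio against round 0 (y axis) at rounds 1, 2 and 3 (panels) for each splicing feature, by family (x axis). Filled points passed limma at adjusted p under 0.05, bars are family medians, and the grey band holds the middle 50% of all 5537 features. The SRSF medians of -1.04, -0.76 and -0.92 lie below the band. The highest filled point of each panel is PRPF31, and at round 3 the open point of RBM23 lies above it.

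SR proteins had the largest median change of the 7 families at each round. Of 8 features, 5 fell at round 1 and 4 each at rounds 2 and 3, and none rose, with median changes of -1.04, -0.76 and -0.92. The falling shares were 62.5%, 50% and 50%, against 7.87%, 6.79% and 7.04% of all features, of which 5.4%, 4.39% and 4.57% rose. SRSF1 (ASF/SF2), an SR protein that activates exons and also shuttles to the cytoplasm, stood at 0.13 and 0.01 at round 0, -1.34 and -1.53 at round 1, -1.41 and -1.84 at round 2 and -1.44 and -2.30 at round 3. All amplified values lay below both round 0 values, and replicate K was the lower one in each amplified pair. SRSF1 fell by 1.51 ± 0.33 (SE, adjusted p = 0.0364), 1.69 ± 0.33 (adjusted p = 0.03) and 1.94 ± 0.33 (adjusted p = 0.022) at rounds 1, 2 and 3 on the log2 scale. SRSF11, an SR-related protein, stood at 1.33 and 1.29 at round 0, 0.16 and 0.17 at round 1, 0.06 and -0.22 at round 2 and 0.05 and 0.02 at round 3. Both unamplified values were above all amplified ones, which were near 0. It fell by 1.14 ± 0.20, 1.39 ± 0.20 and 1.28 ± 0.20 (adjusted p = 0.0212, 0.014 and 0.018).

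SRSF7 (9G8), which couples splicing to mRNA export, was present as 2 clones. Clone AW464625 stood at 0.89 and 1.03 at round 0, -0.72 and -1.17 at round 1, -0.64 and -0.70 at round 2 and -0.31 and -0.38 at round 3. It was above the reference in both unamplified RNAs and below it in all 6 amplified ones, and it fell by 1.90 ± 0.23, 1.63 ± 0.23 and 1.31 ± 0.23 (adjusted p = 0.0083, 0.0136 and 0.023). Clone BF045069 stood at 0.18 and -0.13 at round 0, -1.27 and -0.93 at round 1, -0.52 and -0.69 at round 2 and -0.39 and -0.41 at round 3. It fell by 1.13 ± 0.23 at round 1 (adjusted p = 0.0306), and its changes of -0.63 and -0.42 at rounds 2 and 3 did not pass (adjusted p = 0.124 and 0.259). Both clones were lowest at round 1.

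SRSF6 (SRp55), another exon activator, stood at 0.73 and 0.55 at round 0, -0.45 and -0.19 at round 1, -0.28 and -0.15 at round 2 and -0.10 and -0.06 at round 3. It fell by 0.96 ± 0.21 and 0.86 ± 0.21 at rounds 1 and 2 (adjusted p = 0.0347 and 0.0476), and the change of -0.72 at round 3 did not pass (adjusted p = 0.0698). SRSF3 (SRp20), the smallest SR protein, took another course, at -0.04 and -0.46 at round 0, -0.33 and 0.02 at round 1, -0.94 and -0.87 at round 2 and -1.47 and -1.27 at round 3. Its round 0 and round 1 values overlapped and the later ones were all lower. The change was 0.09 at round 1 (adjusted p = 0.83) and -0.66 at round 2 (adjusted p = 0.129), and SRSF3 fell by 1.12 ± 0.25 at round 3 (adjusted p = 0.0377). SRSF2 (SC35) and SRSF9 were not called against round 0 at any round. The changes were -0.30, -0.58 and -0.25 for SRSF2 and -0.32, -0.29 and 0.17 for SRSF9.

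Among the 18 hnRNP features, 5, 4 and 5 were called lower at rounds 1, 2 and 3 and none was called higher. These falling shares were 27.8%, 22.2% and 27.8%, against 7.87%, 6.79% and 7.04% of all features, of which 5.4%, 4.39% and 4.57% rose. By sign alone, 12 of the 18 changes were below 0 and 6 above 0 at each round, up to 1.81 at round 1. HNRNPA2B1, which packages pre-mRNA and sorts RNAs for transport, had 2 clones with different ratios. Clone AW464917 stood at 0.20 and 0.20 at round 0, -1.60 and -1.44 at round 1, -1.09 and -1.21 at round 2 and -0.61 and -0.90 at round 3. All 6 amplified values were below the round 0 pair, lowest at round 1, and the feature fell by 1.72 ± 0.21, 1.35 ± 0.21 and 0.96 ± 0.21 (adjusted p = 0.0083, 0.017 and 0.0362). Clone BF044057 stood at 1.46 and 1.48 at round 0, 0.26 and 0.25 at round 1, 0.97 and 0.70 at round 2 and 1.15 and 0.94 at round 3. It too was lowest at round 1, where it fell by 1.22 ± 0.21 (adjusted p = 0.0202), while its changes of -0.64 and -0.43 at rounds 2 and 3 did not pass (adjusted p = 0.0974 and 0.215).

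HNRNPU, the scaffold attachment factor that binds nuclear RNA and DNA, also differed by clone. Clone AW465498 stood at 0.13 and 0.08 at round 0, -1.18 and -1.81 at round 1, -1.44 and -1.64 at round 2 and -1.09 and -1.31 at round 3. It fell by 1.61 ± 0.27, 1.65 ± 0.27 and 1.31 ± 0.27 (adjusted p = 0.0194, 0.0189 and 0.0317), with no overlap between amplified and unamplified RNAs. Clone AW461707 stood at -0.26 and -0.33 at round 0, -0.63 and -0.48 at round 1, -0.39 and -0.26 at round 2 and -0.27 and -0.01 at round 3. Its changes of -0.26, -0.03 and 0.15 did not pass (adjusted p = 0.425, 0.936 and 0.658).

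HNRNPH3 and HNRNPH2 belong to the hnRNP H group, which binds runs of G. HNRNPH3 stood at 1.11 and 1.16 at round 0, -0.08 and -0.20 at round 1, -0.19 and -0.36 at round 2 and -0.20 and -0.38 at round 3. Both unamplified values were above 1 and all amplified ones below 0, and it fell by 1.28 ± 0.20, 1.41 ± 0.20 and 1.43 ± 0.20 (adjusted p = 0.0167, 0.0138 and 0.0135). HNRNPH2 stood at 0.79 and 0.76 at round 0, 0.08 and 0.30 at round 1, -0.16 and 0.04 at round 2 and 0.00 and -0.09 at round 3. It changed by -0.58 at round 1 (adjusted p = 0.106) and fell by 0.83 ± 0.20 and 0.82 ± 0.20 at rounds 2 and 3 (adjusted p = 0.0491 and 0.0497), both just inside the threshold. HNRNPK, a poly(C)-binding hnRNP, stood at -0.08 and -0.22 at round 0, -0.24 and -0.58 at round 1, -1.03 and -0.91 at round 2 and -1.26 and -1.38 at round 3. Each pair of HNRNPK values lay below the pair of the round before, though the round 1 change of -0.26 and the round 2 change of -0.82 did not pass (adjusted p = 0.44 and 0.0583). At round 3 HNRNPK fell by 1.17 ± 0.21 (adjusted p = 0.0258).

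HNRNPDL, a relative of HNRNPD (AUF1), had 4 clones. Clone AW464170 stood at 0.59 and 0.58 at round 0, -0.33 and -0.61 at round 1, -0.15 and -0.43 at round 2 and -0.01 and -0.29 at round 3. It fell by 1.06 ± 0.23 at round 1 (adjusted p = 0.0347), and the changes of -0.88 and -0.74 at rounds 2 and 3 did not pass (adjusted p = 0.0571 and 0.0819). Clone BF039567 took a like course but was not called against round 0. It stood at 0.44 and 0.08 at round 0, -0.56 and -0.66 at round 1, -0.10 and -0.48 at round 2 and -0.04 and -0.28 at round 3. Clone BF039481 stood at 0.87 and 0.32 at round 0, 0.11 and 0.05 at round 1, 0.57 and 0.26 at round 2 and 0.68 and 0.49 at round 3. Clone BF041409, with 1 array missing, stood at 0.48 and 0.35 at round 0, 1.77 and 0.53 at round 1, 0.63 and 0.17 at round 2 and -0.04 and -0.65 at round 3, and at round 1 it was the highest of the 4 while the other clones were at their lowest. The 2 dye orientations disagreed for BF041409, with a round 1 change of -0.57 with kidney in Cy5 and 2.04 in Cy3. At round 3 its changes were -2.65 in Cy5 and 1.13 in Cy3, so its mean averages unlike dyes. The hnRNPs that were not called against round 0 at any round were HNRNPA0, HNRNPAB, HNRNPC, HNRNPD and HNRNPL.

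In the snRNP core, SNRPB2 (U2B″, a protein of the U2 snRNP) was called at all rounds. It stood at 0.29 and 0.21 at round 0, -1.11 and -1.09 at round 1, -0.98 and -1.28 at round 2 and -0.83 and -1.27 at round 3. SNRPB2 fell by 1.36 ± 0.24, 1.39 ± 0.24 and 1.30 ± 0.24 (adjusted p = 0.0212, 0.0218 and 0.0258), and its amplified values did not overlap round 0. The Sm proteins SNRPD2 and SNRPD3 and the U1 protein SNRPA had changes from -0.57 (SNRPD3 at round 3) to -0.03 (SNRPD2 at round 3) that did not pass at any round.

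SF3B1, the SF3B subunit that clasps the branch point, had 3 clones. Clone BF040483 stood at 1.86 and 2.00 at round 0, 0.50 and 0.25 at round 1, 0.93 and 0.68 at round 2 and 1.11 and 0.82 at round 3. It was highest before amplification and lowest at round 1, and it fell by 1.56 ± 0.23, 1.12 ± 0.23 and 0.97 ± 0.23 (adjusted p = 0.014, 0.0326 and 0.0434). Clone AW466023 stood at 1.42 and 1.31 at round 0, 0.59 and 0.70 at round 1, 0.36 and 0.75 at round 2 and 0.34 and 0.70 at round 3. Its amplified values were all below round 0, but the changes of -0.72, -0.81 and -0.84 did not pass (adjusted p = 0.0969, 0.0794 and 0.0692). Clone BF040459 had replicates far apart after amplification, at 1.18 and 1.25 at round 0, 0.18 and 2.06 at round 1, 2.11 and 0.05 at round 2 and 0.92 and -2.19 at round 3, and was not called. SF3B3, another SF3B subunit, stood at 0.10 and 0.13 at round 0, -0.88 and -0.87 at round 1, 0.01 and -0.35 at round 2 and 0.35 and 0.14 at round 3. It fell by 0.99 ± 0.22 at round 1 alone (adjusted p = 0.036), with changes of -0.29 and 0.12 at rounds 2 and 3 (adjusted p = 0.408 and 0.731). SF3B4, SF3B5 and SF3B6 were not called against round 0.

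The U2AF pair was not called against round 0 by limma at any round. U2AF1, the small subunit that reads the AG at the intron end, stood at -0.48 and -0.24 at round 0, -1.34 and -2.07 at round 1, -0.83 and -1.34 at round 2 and -0.46 and -1.09 at round 3. Its change of -1.35 at round 1 had an adjusted p of 0.0581. U2AF1 was called below the reference at rounds 1 and 2 (limma adjusted p = 0.00338 and 0.0183). U2AF2, the large subunit that binds the polypyrimidine tract, stood at -0.34 and -0.29 at round 0, 0.05 and -0.07 at round 1, -0.33 and -0.53 at round 2 and -0.08 and -0.16 at round 3. U2AF2 thus lay between -0.53 and 0.05 in every RNA.

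PRPF31 tethers U4/U6 to U5 in the tri-snRNP and is mutated in a human retinal degeneration. It held the only member called higher than round 0 at all 3 rounds. Clone AW461574 stood at -0.42 and -0.31 at round 0, 1.71 and 1.54 at round 1, 1.36 and 1.34 at round 2 and 1.31 and 1.55 at round 3. It was below the reference in both unamplified RNAs and above the reference, at 1.31 or more, in every amplified RNA. It rose by 1.99 ± 0.20, 1.71 ± 0.20 and 1.80 ± 0.20 (adjusted p = 0.00756, 0.00974 and 0.00817), a 3.97-fold ratio at round 1. The other 2 clones of the gene went otherwise. Clone AW462877 stood at -0.13 and 0.09 at round 0, -0.53 and -0.09 at round 1, -0.55 and -0.21 at round 2 and -1.65 and -0.69 at round 3. Clone AW465981, with 1 array missing, stood at 1.06 and 0.68 at round 0, 0.83 and 1.75 at round 1, 1.21 and 0.17 at round 2 and 2.07 and -2.02 at round 3. Neither passed against round 0 at any round, and the round 3 change of AW462877 had the opposite sign, -1.15 (adjusted p = 0.0883).

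PRPF4B, a kinase of the tri-snRNP, had 2 clones. Clone AW462906 stood at 1.38 and 1.44 at round 0, 0.08 and -0.02 at round 1, 0.84 and 0.55 at round 2 and 1.11 and 1.14 at round 3. It fell by 1.38 ± 0.20 at round 1 (adjusted p = 0.0142) and had changes of -0.71 and -0.28 at rounds 2 and 3 (adjusted p = 0.0705 and 0.379). Clone AW465271 had wide replicate gaps, at 0.29 and 1.84 at round 0, 1.65 and 0.89 at round 1, -0.41 and 0.83 at round 2 and -1.35 and -0.06 at round 3, and was not called. PRPF8, the core scaffold of the spliceosome, stood at 0.05 and -0.08 at round 0, 0.68 and 0.43 at round 1, 0.82 and 1.13 at round 2 and 0.81 and 1.55 at round 3. Its amplified values were all above its unamplified ones, but the changes of 0.57, 0.99 and 1.20 missed the threshold (adjusted p = 0.239, 0.0832 and 0.052). PRPF6, a bridging protein of the tri-snRNP, was not called against round 0 with either clone.

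In the RBM family 2, 1 and 2 of 26 features fell and 1, 0 and 0 rose at rounds 1, 2 and 3. The falling shares of 7.69%, 3.85% and 7.69% were near or below those of all features (7.87%, 6.79% and 7.04%). RBM5, which regulates exons of apoptosis genes, had 2 clones that parted at round 1. Clone AW465901 stood at 1.31 and 1.23 at round 0, 0.00 and -0.39 at round 1, 0.73 and 0.73 at round 2 and 1.20 and 1.07 at round 3. It fell by 1.47 ± 0.22 at round 1 (adjusted p = 0.0142), and its changes of -0.54 and -0.14 at rounds 2 and 3 did not pass (adjusted p = 0.146 and 0.703). Clone BM365181 stood at 1.48 and 1.04 at round 0, 2.44 and 1.61 at round 1, 1.14 and 1.79 at round 2 and 0.32 and 0.68 at round 3. Its mean was highest at round 1, with a change of 0.76 that did not pass (adjusted p = 0.222).

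RBM4, a splicing and translation regulator, had its lowest values at round 1 in both clones. Clone BF039257 stood at 0.69 and 0.61 at round 0, -0.55 and -0.44 at round 1, 0.42 and -0.02 at round 2 and 0.51 and 0.30 at round 3. It fell by 1.15 ± 0.23 at round 1 (adjusted p = 0.0304) but not at rounds 2 and 3 (-0.45 and -0.25, adjusted p = 0.241 and 0.504). Clone AW464490 stood at 0.16 and 0.20 at round 0, -0.37 and -1.00 at round 1, -0.27 and -0.44 at round 2 and 0.07 and 0.02 at round 3. Its round 1 change of -0.86 had an adjusted p of 0.078. Spots of RBM4 and of its close relative RBM4B could take up each other's cDNA, which was not tested.

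RBM39, a U2AF-related coactivator, was called at round 3. Clone BF040025 stood at 1.43 and 1.26 at round 0, 1.07 and 1.17 at round 1, 1.14 and 1.32 at round 2 and 0.28 and 0.30 at round 3. Only the round 3 pair was low, and it fell by 1.05 ± 0.20 (adjusted p = 0.0261). Its changes at rounds 1 and 2 were -0.23 and -0.12 (adjusted p = 0.465 and 0.722). The 2 dye orientations disagreed at those rounds, with changes of -1.24 and -1.68 with kidney in Cy5 and of 0.79 and 1.45 in Cy3. At round 3 the changes were -1.79 in Cy5 and -0.32 in Cy3, so the course of the mean depends on averaging unlike dyes. Clone AW462439 stood at 0.98 and 0.94 at round 0, 0.64 and 0.96 at round 1, 0.38 and 0.67 at round 2 and 0.35 and 0.45 at round 3. Its lower values at rounds 2 and 3 did not pass (adjusted p = 0.237 and 0.142). RBM33 stood at 0.56 and 0.78 at round 0, 0.49 and 0.10 at round 1, -0.88 and -0.28 at round 2 and -0.70 and -0.78 at round 3. It fell by 1.25 ± 0.28 and 1.41 ± 0.28 at rounds 2 and 3 (adjusted p = 0.0388 and 0.0304), with a change of -0.38 at round 1 (adjusted p = 0.387).

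RBM18 stood at -0.10 and -0.06 at round 0, 1.27 and 1.12 at round 1, 0.19 and 0.12 at round 2 and -0.09 and -0.74 at round 3. Only its round 1 pair was high, and it rose by 1.28 ± 0.26 (adjusted p = 0.0312). The 2 dye orientations disagreed for this feature, with a round 1 change of -0.40 on arrays with kidney in Cy5 and 2.95 on arrays with kidney in Cy3. Other RBM genes, among them RBM8A of the exon junction complex and RBM22 of the catalytic spliceosome, were not called against round 0. The highest amplified value of any member was that of RBM23 at round 3, with 4.74 in replicate K and 0.75 in replicate 1. The missing value of RBM23 was on the Cy5 array of that replicate K RNA, so 4.74 came from 1 Cy3 array without its dye partner. RBM23 was not called against round 0. Its round 3 mean of 2.75, which rests in part on that single array, was called above the reference (limma adjusted p = 0.0446).

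**Figure D3:**
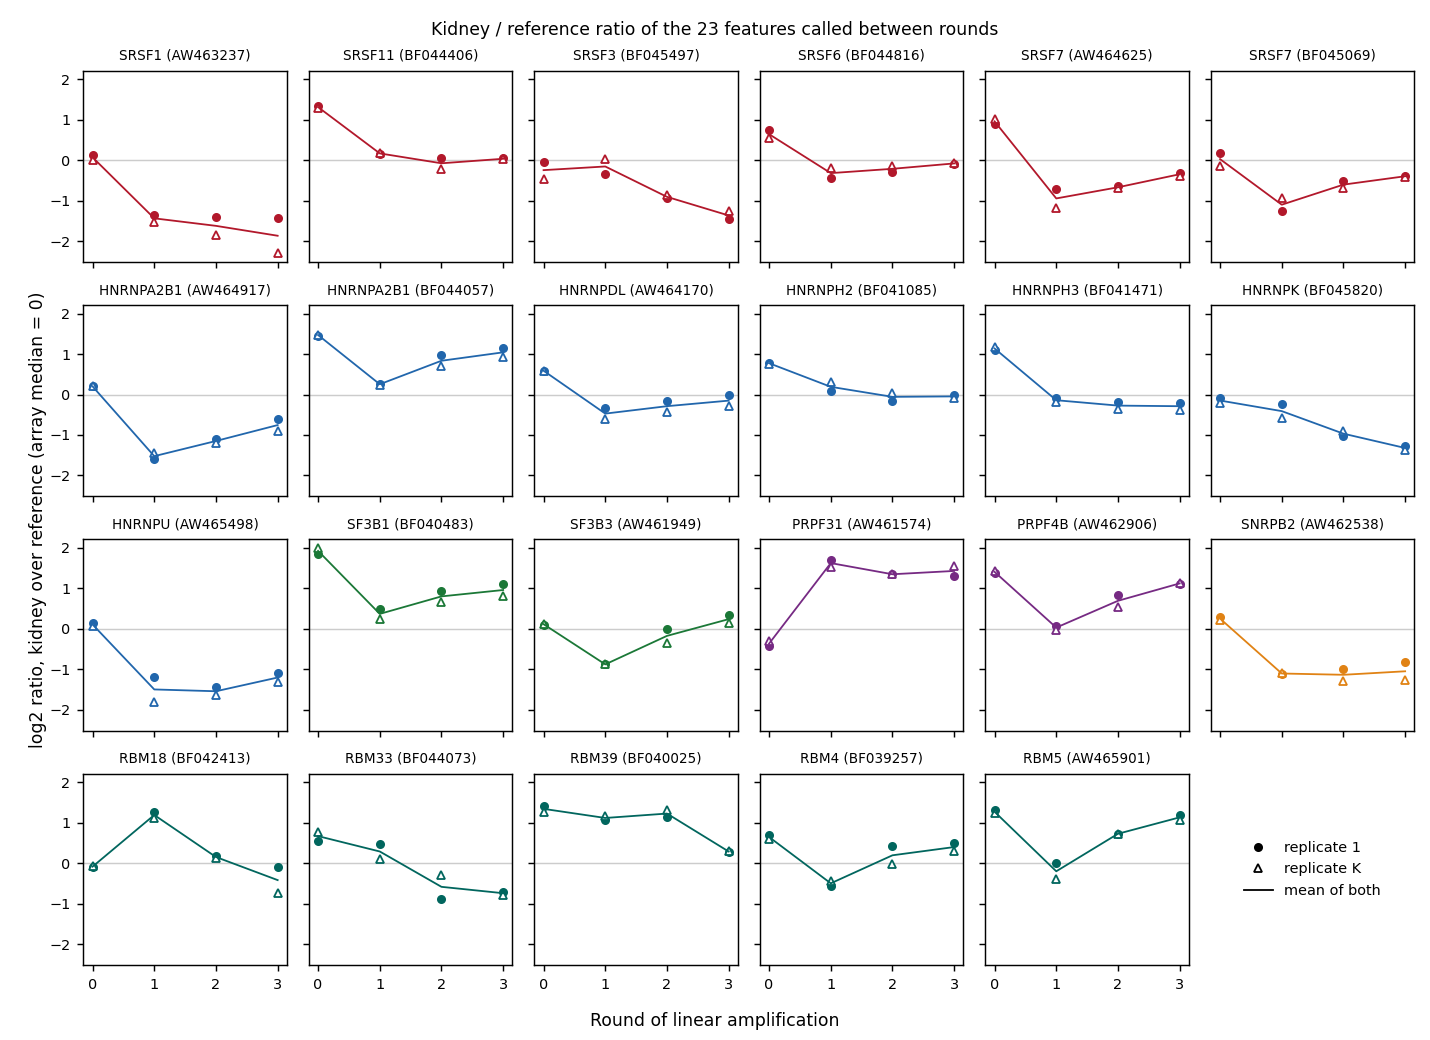
Log2 ratio of kidney over reference (y axis) at rounds 0 to 3 (x axis) for the 23 features called against round 0, with replicate 1 as filled circles, replicate K as open triangles and their mean as a line. Most lines drop between rounds 0 and 1, PRPF31, RBM18 and, by 0.09, SRSF3 go up, and SRSF1, SRSF3, HNRNPK, RBM33 and RBM39 are among those lowest at round 3.

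Between amplified rounds limma called 0 members. At unadjusted p under 0.05 there were 10 of 73 for round 2 against 1, 21 for round 3 against 1 and 4 for round 3 against 2. The same unadjusted threshold took 569, 1176 and 401 of all 5537 features. Of all features 0, 16 and 0 were called in these comparisons (0%, 0.289% and 0%). A fit of all 16 arrays with a dye term called 9 members for round 3 against round 1, 6 higher and 3 lower, and 0 in the other 2; the same fit called 9.5% of all features for round 3 against round 1. The median size of the step per member was 0.61 for round 1 against 0, 0.29 for round 2 against 1 and 0.24 for round 3 against 2, beside 0.56, 0.31 and 0.26 for all features. Among members 21, 4 and 4 features changed by more than 1 in these steps, which is 28.8%, 5.48% and 5.48%, against 24.1%, 7.78% and 7.84% of all features. The median gap between replicates 1 and K per member was 0.12 at round 0 and 0.35, 0.28 and 0.26 at rounds 1, 2 and 3, against 0.21, 0.37, 0.33 and 0.33 over all features.

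Several clones of a gene served as repeated measurements of it, though each is a different cDNA. Of the 53 genes, 16 had 2 to 4 clones (36 features). In 10 of these a clone was called against round 0, and in 2 of the 10, SRSF7 and HNRNPA2B1, every clone was. Clones of SRSF7 lay 0.93 apart at round 0 and 0.15, 0.07 and 0.05 apart at rounds 1, 2 and 3. Those of HNRNPA2B1 stayed apart at all rounds, by 1.27, 1.78, 1.98 and 1.80. RBM5 clones lay 0.01 apart at round 0 and 2.22 apart at round 1, and PRPF6 clones 0.01 and 1.34 apart. At round 1, PRPF6 clone BF039621 changed by 0.21 with kidney in Cy5 and 1.67 in Cy3, and clone BF043591 by -1.13 and 0.32. For PRPF6 a difference between clones therefore cannot be told apart from one between dyes. The value of a gene here is the value of a clone.

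**Figure D4:**
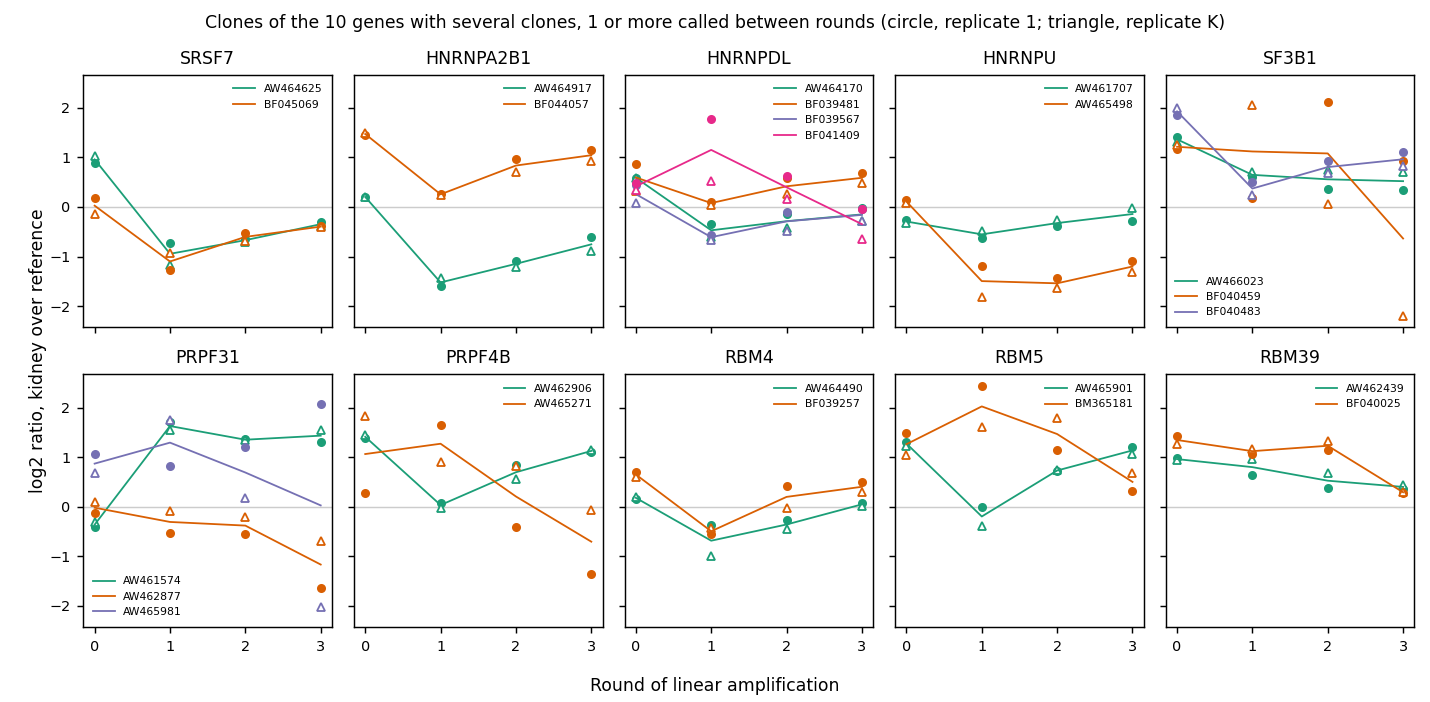
Log2 ratio of kidney over reference (y axis) at rounds 0 to 3 (x axis) for each clone (colour) of the 10 genes with several clones of which 1 or more was called; circles are replicate 1, triangles replicate K and lines their mean. The clones of SRSF7 run together from round 1 on, those of HNRNPA2B1 stay apart at all rounds, and those of RBM5 part at round 1.

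The dye swap gives each change once in each orientation. Of the 18, 12 and 14 called members at rounds 1, 2 and 3, 17, 12 and 14 changed in the same direction in both orientations, which is 94.4%, 100% and 100%, against 97.8%, 98.7% and 98.6% of all called features with a change in both orientations. The exception was RBM18. Sizes differed between the dyes: SRSF7 clone AW464625 changed by -1.27 with kidney in Cy5 and -2.54 with kidney in Cy3 at round 1. SRSF1 changed by -0.98 and -2.04, and HNRNPU clone AW465498 by -0.89 and -2.32. PRPF31 clone AW461574 had near equal changes of 2.12 and 1.86, as did SNRPB2 with -1.38 and -1.33. Over all 73 members the median change at rounds 1, 2 and 3 was -0.30, -0.36 and -0.27 in Cy5 and -0.50, -0.43 and -0.42 in Cy3. For all features it was 0.01, 0.01 and 0.02 in Cy5 and -0.11, -0.06 and -0.05 in Cy3.

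**Figure D5:**
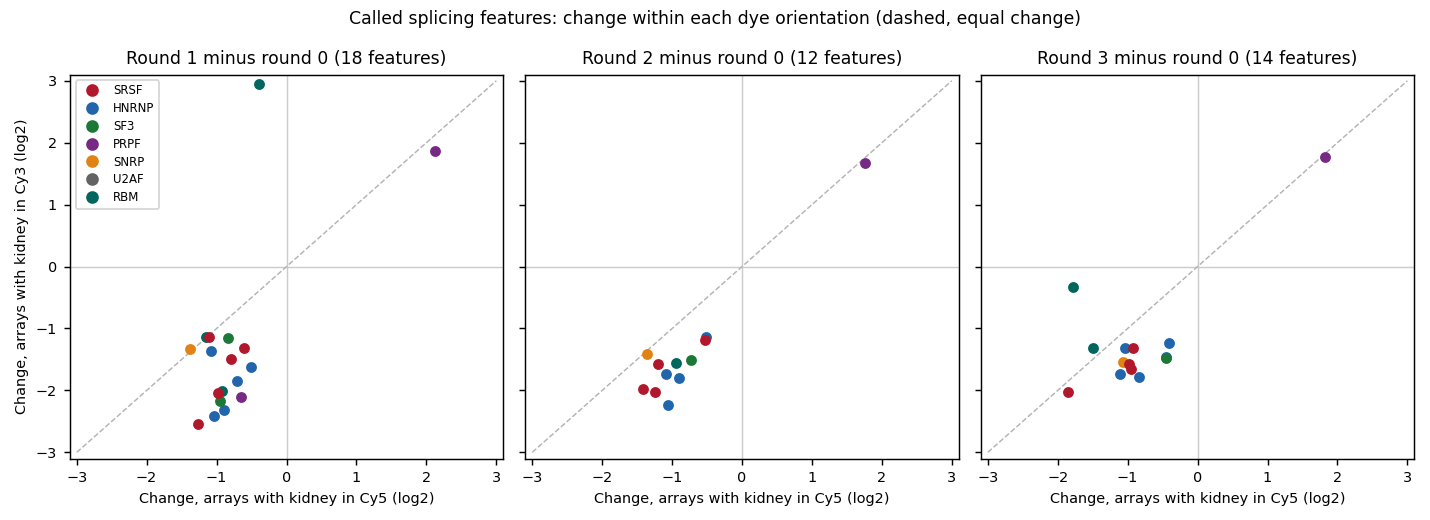
Change in log2 ratio against round 0 on arrays with kidney in Cy5 (x axis) and in Cy3 (y axis) for the members called at rounds 1, 2 and 3 (panels, 18, 12 and 14 points), coloured by family; the dashed line marks equal change. Most points lie in the lower left and below the line, PRPF31 lies at the upper right, and RBM18 lies at the upper left in the first panel.

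Other genes of the splicing machinery were taken from a list of 134 symbols outside the naming rule, of which 100 features of 73 genes were tested. At round 1, 10 of the 100 fell and 2 rose, at round 2, 9 fell and 1 rose, and at round 3, 11 fell and 3 rose. Of all features 7.87%, 6.79% and 7.04% fell and 5.4%, 4.39% and 4.57% rose, so these counts were near the background. The median changes of the list were 0.02, -0.12 and -0.20, against -0.03, 0.01 and 0.00 for all features. The largest decreases at round 1 were those of RBMX2, a component of the activated spliceosome (-1.73), SON, a protein of nuclear speckles (-1.53), and SFPQ, a paraspeckle protein (-1.41). RBFOX2 (1.03) and SYNCRIP, also known as hnRNP Q (1.06), rose. At round 2 RBMX2 (-1.65), MBNL1, a regulator of muscle splicing (-1.50), and ACIN1 of the exon junction complex (-1.34) fell most, and LSM4 of the U6 snRNP rose (1.26). At round 3 ACIN1 (-2.26), the helicase DDX17 (-2.02) and a SYNCRIP clone (-1.73) fell most, while LSM4 (1.62), the helicase DDX23 (1.13) and another SYNCRIP clone (1.07) rose. The values in brackets are changes in log2 ratio of single clones.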

How the data were processed

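Kidney RNA was measured on 16 arrays, 8 RNAs each hybridised in both dye orientations. The authors deposited 1 ratio per spot: log2 values on 15 arrays and, on the Cy3 array of round 1 replicate 1, a score of unstated scale that was used as a log2 ratio. For the scanner, background correction and normalization, no method is given in the sources used here. Values beyond 10 in size were left out, duplicate spots were averaged, each array was centred on its median, the ratio of Cy3 arrays was turned, and the arrays of an RNA were averaged, so that each RNA counted once. A feature missing in 1 orientation took its value from the other.

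Fold changes were tested on log2 ratios with limma 3.58.1 in R 4.3.3 over all 5537 features with a listed gene and a value in every RNA. The fit had 4 residual and 2.4 prior degrees of freedom, Benjamini-Hochberg adjustment and a threshold of 0.05. Features listed with several genes were kept in the fit but could not be members. The fit was tested on simulated data. Described genes were the members called between rounds, all clones of those genes, and up to 4 members farthest above and below the reference among those called at every round. Members described outside this rule, such as PRPF8, both U2AF genes, SRSF2, SRSF9 and RBM23, were picked after their values were seen. Members and lists were chosen with earlier results of these data known. Replicate names did not pair the RNAs: 1 of 6 correlations of same-named deviations was over 0.1 (-0.046 to 0.169). Alternatives were other centring, scaling, dye use, spot filters and left-out RNAs. Neither clone sequences nor genome positions were used.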

Additional observations from a re-analysis of the deposited data

Results flagged for a closer look

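In 3 cases a splicing feature was called above the reference at round 0 and below it at a later round. Each was also called between those rounds. No share of all features stands beside this count, so whether the members differ in it from the whole array was not tested. SRSF7 clone AW464625 changed by -1.90 at round 1, with a mean ratio of -0.95 at round 1 and 0.96 at round 0 (limma adjusted p = 0.0083). The same clone changed by -1.63 at round 2, with -0.67 at round 2 and 0.96 at round 0 (adjusted p = 0.0136). RBM33 changed by -1.41 at round 3, with -0.74 at round 3 and 0.67 at round 0 (adjusted p = 0.0304).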

How the results depend on the processing

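Counts of called members moved with several choices, and the cause was not tested. Where no share of all features stands beside a count, a change over the whole array cannot be told apart from one of the members. Without centring they were 39, 0 and 0 at rounds 1, 2 and 3 against round 0, and 18 and 14 against the reference at rounds 2 and 3. Of all features, 33.7%, 1.21% and 2.35% were then called against round 0, and 31.2% and 22.1% against the reference. All 16 arrays with a dye term and RNA as a random block (consensus correlation -0.079) called 23 at rounds 2 and 3 against round 0. The same fit called 22.5% and 23.9% of all features there. For round 3 against round 1 it called 9 members, beside 9.5% of all features. That last comparison had 8 calls with both duplicate spots on all arrays, and 5 with both dyes in every RNA, a choice made after seeing the data. Fitting only the rounds compared gave 0, 3 and 5 against round 0, and 17, 20 and 14 against the reference at rounds 1, 2 and 3. The counts against round 0 were 2, 3 and 6 on Cy5 arrays alone and 10, 7 and 5 without the Cy3 array of round 1 replicate 1. Leaving out 1 RNA in turn gave 3 to 13, 0 to 11 and 1 to 12 calls against round 0, and 12 to 33, 20 to 32, 13 to 30 and 14 to 26 against the reference at rounds 0 to 3. With the replicate block there were 19, 9 and 10 calls against round 0, and 37 of the 44 single calls were kept. Comparisons of round 2 with round 1 and of round 3 with round 2 had 0 calls under every alternative run. RBM18 reversed, to -0.40, on Cy5 arrays alone at round 1. With 2 RNAs per round, small changes were not detectable.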

Other observations

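The 2 features listed with RBM15B and a further gene are not among the members, and count above only within all features. Clone BF045387 had ratios of -0.32 and -0.03 at round 0, 1.07 and 1.28 at round 1, 0.69 and 0.02 at round 2 and -0.47 and 1.04 at round 3. Clone AW465540 had -0.26 and -0.28 at round 0, -0.84 and -1.10 at round 1, -0.57 and -0.34 at round 2 and -0.39 and -0.27 at round 3. The signs of these clones were opposite at rounds 1 and 2 in every RNA.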
